A study of Mus musculus with 6 samples.

Results

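The genes described here are 10 genes of natural killer T (NKT) cells and other innate-like T cells: Zbtb16, Maf, Icos, Il4, Il18r1, Cxcr6, Il17rb, Slamf1, Slamf6 and Sh2d1a. They were read on every probe set whose platform annotation gives exactly 1 gene symbol and that symbol is one of the 10, which took 24 of 45101 probe sets. Thymus RNA of adult female mice was compared between 2 outcrosses, (AKR/J x FVB/NJ)F1 with 3 arrays (the AKR cross) and (DBA/2J x FVB/NJ)F1 with 3 arrays (the DBA cross). FVB/NJ is thus a parent of every mouse, AKR/J or DBA/2J is the other one, and all mice were killed under Avertin anaesthesia with no other treatment given in the labels. The study asked how basal expression in the thymus differs with genotype. The labels do not say whether each array came from its own animal, so the errors and p-values below cover only how far these samples spread, which may be technical.

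NKT cells are T cells with a nearly invariant receptor that recognises lipids held by CD1d. They are selected in the thymus by other thymocytes rather than by epithelium, and the contact needs receptors of the SLAM family, which signal inside the cell through the adaptor SAP. The selected cells switch on Zbtb16, which encodes the zinc finger protein PLZF, and then gain the memory-like state and the rapid IL-4 release for which the lineage is known. PLZF is also found in some gamma-delta T cells and in precursors of innate lymphoid cells, and several of the 10 genes are also expressed by other cells. The arrays measured whole thymus, so fewer cells of a type and less RNA per cell cannot be told apart, and no value here shows that PLZF drives another gene.

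The promoter of Il4 is shown because the protein of Maf, c-Maf, is known to activate Il4 by binding its promoter. Those of Slamf1 and Cxcr6 are shown beside it. They were picked with the differences between the crosses known, so nothing is read from a comparison of these windows. Each line gives 250 bases before and 50 bases after a RefSeq start, from the C57BL/6J reference (GRCm38.p6) and not from the parental strains, 5′ to 3′ along the gene's strand. Il4 lies at chr11:53618616-53618915 (minus strand), Slamf1 at chr1:171766882-171767181 (plus strand) and Cxcr6 at chr9:123806227-123806526 (plus strand). Capitals mark TGCTGA, the core of the c-Maf recognition element, on either strand.
Il4: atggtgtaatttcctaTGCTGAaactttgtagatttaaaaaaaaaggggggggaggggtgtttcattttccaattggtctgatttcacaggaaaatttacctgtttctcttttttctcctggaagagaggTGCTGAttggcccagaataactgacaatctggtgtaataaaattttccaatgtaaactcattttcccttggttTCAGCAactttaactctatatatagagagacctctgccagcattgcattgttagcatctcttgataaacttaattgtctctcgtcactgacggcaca
Slamf1: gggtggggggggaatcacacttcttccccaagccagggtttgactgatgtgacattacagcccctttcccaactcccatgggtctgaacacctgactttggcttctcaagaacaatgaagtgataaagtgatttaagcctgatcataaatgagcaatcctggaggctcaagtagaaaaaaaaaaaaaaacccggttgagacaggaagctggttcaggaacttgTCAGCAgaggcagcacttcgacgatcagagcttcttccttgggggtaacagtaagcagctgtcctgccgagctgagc
Cxcr6: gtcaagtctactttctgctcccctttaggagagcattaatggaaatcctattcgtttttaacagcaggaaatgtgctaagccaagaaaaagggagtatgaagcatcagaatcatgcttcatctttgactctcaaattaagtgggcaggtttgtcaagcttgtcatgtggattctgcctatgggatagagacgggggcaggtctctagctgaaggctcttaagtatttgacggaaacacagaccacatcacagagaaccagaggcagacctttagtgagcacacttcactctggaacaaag
The Il4 window held the core 3 times, with the leftmost base at -234, -120 and -47 from the start. The Slamf1 window held it once, at -27, and neither the Cxcr6 window nor that of the other Il4 start held it. Of 32851 such windows of all genes, 19.5% held at least 1 core. RefSeq windows were at hand for 6 of the 10 genes (9 windows in all, since Il4 has 2 starts and Il18r1 has 3), and 2 of the 9 windows held the core, both shown above. Entries were missing for Zbtb16, Maf, Icos and Sh2d1a. GGAAA, the core bound by NFAT factors, was found 5 times in the shown Il4 window, 3 times in the Cxcr6 window and 1 time in the Slamf1 window, against 61.3% of all windows with at least 1. In the Il4 window 1 of these matches overlapped a CANNTG match, and no TGCTGA match overlapped another motif. CANNTG, the E-box bound by E proteins, was in all 9 windows and in 72.3% of all windows. GATAA, the core bound by GATA factors, was in the shown Il4 window, the Il17rb window and the Slamf1 window, and in 25.4% of all windows. GTGGGCG, part of the site bound by EGR factors, was in none of the 9 windows and in 7.97% of all windows. All motifs were searched on both strands. A match is a description of these letters only.

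Values are log2 probe set values as deposited, and a difference is the AKR cross minus the DBA cross, so that a negative difference was lower in the AKR cross. The standard error (SE) comes from limma, a linear model fitted over all tested probe sets. Tests took the probe sets with 3 or more of the 6 arrays above that array's 40th percentile (5.21 to 5.28). Array medians ran from 5.92 to 5.95. Array correlations were 0.994 to 0.996 within a cross and 0.984 to 0.989 between crosses. Genes of double-positive thymocytes, the main population of a thymus, were bright on all 6 arrays, with Rag1, a recombinase gene, at 12.88 to 13.10 and Dntt, which encodes terminal transferase, at 12.98 to 13.13.

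The 10 genes were chosen with earlier results of these arrays known, those of Zbtb16, Maf, Icos and Cxcr6 among them, so their differences are given as a description, with no test. Of the 24 probe sets, 22 passed the filter, and 1 each of Maf and Slamf6 was too dim. In 21 of 24 the mean was lower in the AKR cross. In 16 of 24 every AKR array lay below every DBA array, in 1 the order was opposite, and in 7 the groups overlapped. Over all 27374 tested probe sets the groups were separate in 44.8%, and in 22.3% every AKR array was the lower. The limma fit called 13 of the 22 (adjusted p under 0.05), all higher in the DBA cross, where it called 27.2% of all tested probe sets and 15.0% as higher in the DBA cross. Nothing is read from these counts, since this difference chose the genes. The median difference of the 24 probe sets was -0.52, beside 0.01 for all tested probe sets. Taken by the brightest probe set, 6 of the 10 genes were called (26.3% of all tested genes) and 7 had separate groups (43.9% of all tested genes), with nothing read from these counts either.

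**Figure D1:**
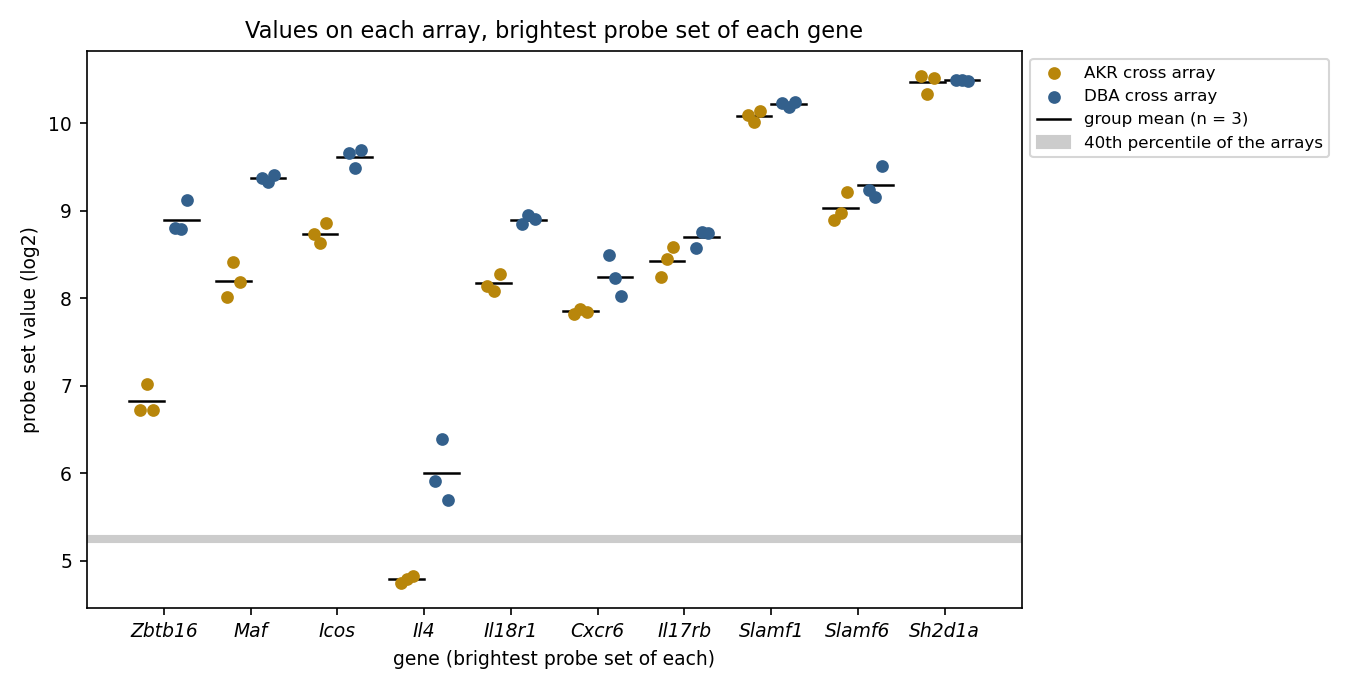
Log2 value of the brightest probe set of each of the 10 genes (horizontal axis) on each array, with the AKR cross in ochre, the DBA cross in blue, a black line at each group mean (n = 3) and a grey band at the 40th percentile of the arrays (5.21 to 5.28). The groups are far apart for Zbtb16 (6.82 against 8.90) and nearly level for Sh2d1a (10.47 against 10.49), and the AKR arrays of Il4 lie under the band.

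Of the transcription factor genes, Zbtb16 had the largest difference among the 24 probe sets. Its brightest probe set, 1439163_at, read 6.72, 7.02 and 6.72 on the AKR arrays and 8.80, 8.79 and 9.12 on the DBA arrays. The groups were 1.78 apart at their nearest arrays, and the spread within each cross was small (SD 0.17 and 0.18, n = 3 each). The difference of -2.09 ± 0.12 (SE) was 4.25-fold and ranked 80th of 27374 towards the DBA cross. The probe set 1419874_x_at read 4.57, 5.67 and 4.89 against 6.53, 6.39 and 6.29, with 1 of 3 AKR arrays above the 40th percentile. AKR replicate 2 was the high one of its group there, and the difference was -1.36 ± 0.24 (SE). The third, 1427638_at, read 6.12, 6.25 and 6.14 against 6.72, 6.77 and 6.55. All 3 probe sets of Zbtb16 thus had separate groups in the same order, but their differences ran from -2.09 to -0.51, so the size depended on the probe set. The suffix _x_at marks a probe set whose probes can match other transcripts.

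Maf, which encodes the transcription factor c-Maf of IL-4-producing and IL-17-producing T cells, had 6 probe sets that did not all go one way. The brightest, 1456060_at, read 8.01, 8.41 and 8.18 on the AKR arrays and 9.37, 9.33 and 9.41 on the DBA arrays. The lowest DBA array was 0.91 above the highest AKR array, and the difference was -1.17 ± 0.10 (SE), 2.25-fold. The probe sets 1447849_s_at (-0.80 ± 0.15, SE) and 1435828_at (-0.83 ± 0.10, SE) also had separate groups, and all 3 AKR arrays of 1435828_at were under the 40th percentile, so that it was tested only through the DBA arrays. For 1437473_at the groups overlapped, at 6.74, 7.05 and 7.08 against 7.13, 7.08 and 7.01. The opposite order was seen on 1447945_at, at 5.31, 5.63 and 5.27 against 4.98, 5.22 and 4.96. Its groups were only 0.04 apart, its difference was 0.35 ± 0.13 (SE), limma did not call it, and all 3 DBA arrays were under the 40th percentile. The untested 1444073_at read 5.11, 4.81 and 5.11 against 5.11, 5.85 and 5.64.

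**Figure D2:**
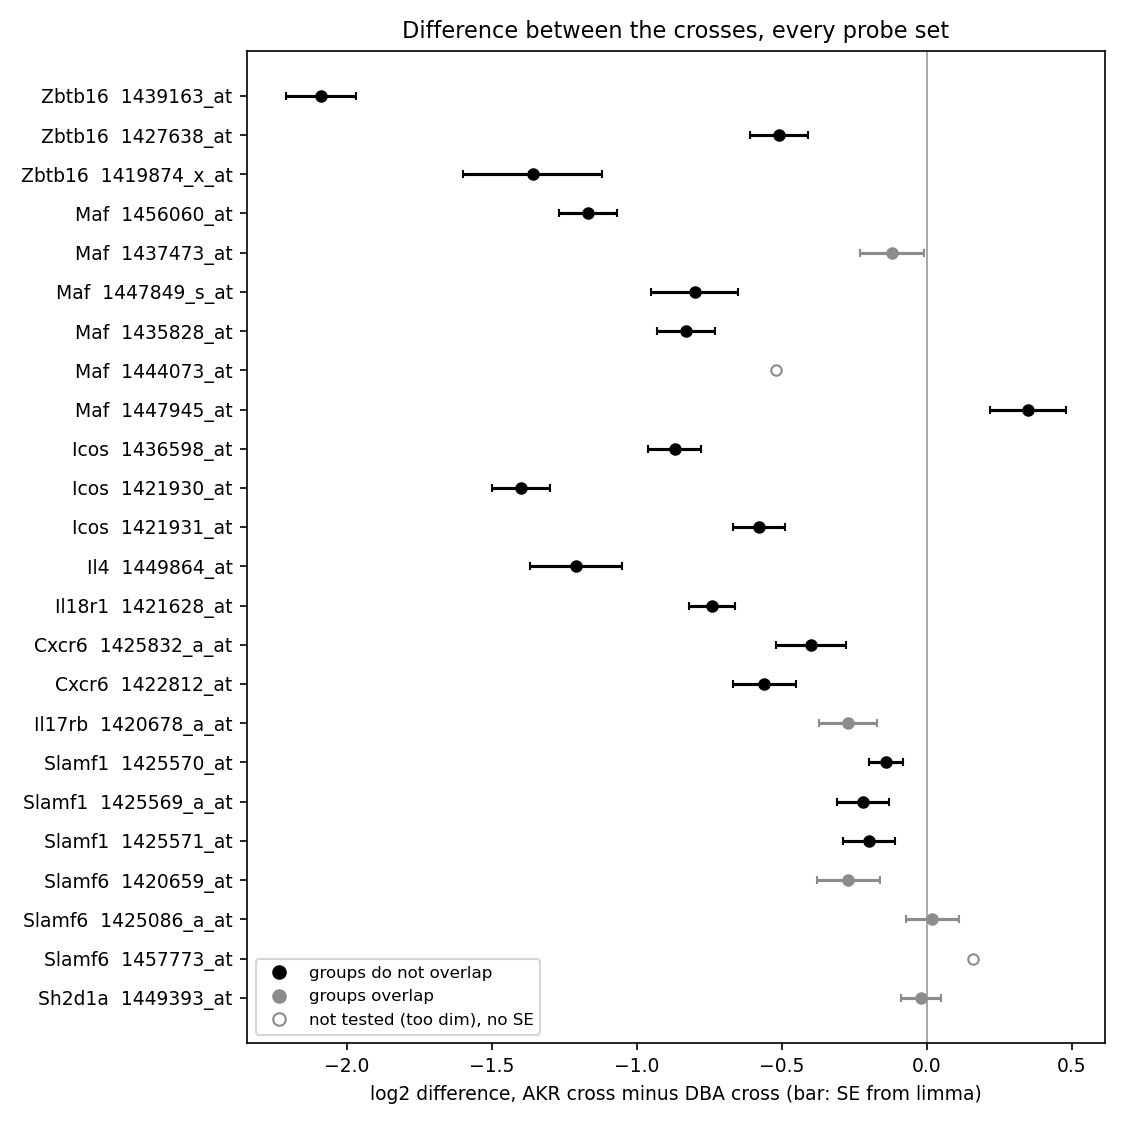
Log2 difference (AKR cross minus DBA cross, horizontal axis) of each of the 24 probe sets, with the SE from limma as a bar, black points where the groups do not overlap, grey points where they do, and open points for the 2 untested probe sets. Points run from -2.09 (Zbtb16) to 0.35 (Maf 1447945_at), and those of Slamf1, Slamf6 and Sh2d1a lie between -0.27 and 0.16.

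Il4 encodes the cytokine IL-4, which NKT cells release in the thymus. It read 4.75, 4.79 and 4.82 on the AKR arrays and 5.91, 6.39 and 5.69 on the DBA arrays. No AKR array was above the 40th percentile and all 3 DBA arrays were, so Il4 was tested only through the group in which it was high. The difference of -1.21 ± 0.16 (SE) therefore has no exact size, since a value this dim compresses a fold. With any 1 of the DBA arrays left out, Il4 no longer passed the filter.

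Icos encodes a costimulatory receptor of activated, regulatory and innate-like T cells. The brightest probe set, 1436598_at, read 8.73, 8.63 and 8.86 on the AKR arrays and 9.66, 9.49 and 9.69 on the DBA arrays. A second, 1421930_at, read 8.01, 7.78 and 8.12 against 9.33, 9.37 and 9.39, with a difference of -1.40 ± 0.10 (SE), 2.63-fold. The groups were 1.21 apart there, next to Zbtb16 the widest separation among the 24 probe sets. On 1421931_at the difference was -0.58 ± 0.09 (SE). All 3 probe sets of Icos were lower on every AKR array than on any DBA array.

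Among the cytokine receptor genes, Il18r1, which encodes the ligand-binding chain of the IL-18 receptor, read 8.14, 8.08 and 8.28 on the AKR arrays and 8.85, 8.95 and 8.91 on the DBA arrays. The groups were 0.56 apart and the difference was -0.74 ± 0.08 (SE), 1.66-fold. Il17rb, which encodes the receptor chain for IL-25 found on IL-4-producing NKT cells, read 8.24, 8.45 and 8.59 against 8.58, 8.76 and 8.75. AKR replicate 3 lay at the level of DBA replicate 1, so the groups overlapped. The difference of -0.27 ± 0.10 (SE) was not called by limma. Of these receptor genes Il18r1 was thus separate between the crosses and Il17rb was not, and no test compared them.

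Cxcr6 encodes the receptor for the chemokine CXCL16 and is high on mature innate-like T cells. Its brightest probe set, 1425832_a_at, read 7.82, 7.88 and 7.84 on the AKR arrays and 8.49, 8.23 and 8.02 on the DBA arrays. The AKR arrays were close together (SD 0.03) and the DBA arrays spread more (SD 0.23), with 0.14 between the groups. The second, 1422812_at, read 6.44, 6.69 and 6.57 against 7.15, 7.24 and 6.99. The differences of -0.40 ± 0.12 and -0.56 ± 0.11 (SE) were 1.32-fold and 1.47-fold.

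The SLAM receptor genes and their adaptor differed little. Slamf1, which encodes the receptor CD150, read 10.09, 10.01 and 10.14 on the AKR arrays and 10.23, 10.19 and 10.24 on the DBA arrays (1425570_at). Its 3 probe sets all had every AKR array below every DBA array, but the gaps were 0.01 to 0.12, the differences -0.22 to -0.14, and limma called none of them. After quantile normalization of the arrays the difference of 1425570_at was -0.09, a move larger than its spread between replicates.

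Slamf6, which encodes the receptor Ly108, had probe sets with unlike differences, which were not tested against each other. The brightest, 1420659_at, read 8.90, 8.98 and 9.21 against 9.24, 9.16 and 9.51 (-0.27 ± 0.11, SE). On 1425086_a_at the values were 8.69, 8.43 and 8.64 against 8.51, 8.54 and 8.64 (0.02 ± 0.09, SE). The groups overlapped on both, and on the third, 1457773_at, which was too dim to test. Sh2d1a, which encodes SAP, read 10.54, 10.34 and 10.52 against 10.49, 10.49 and 10.48. The groups overlapped and the difference was -0.02 ± 0.07 (SE), so a difference of the size seen for Il18r1 was not measured for Sh2d1a.

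**Figure D3:**
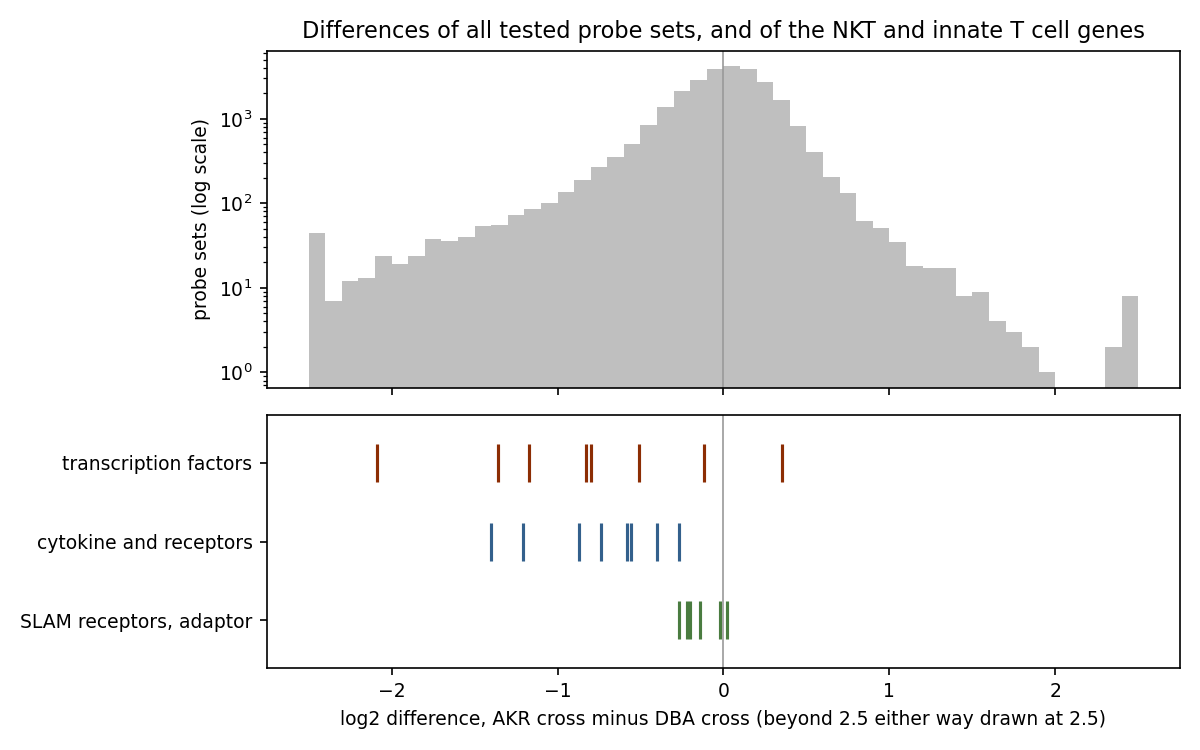
Upper panel, number of tested probe sets (log scale) by log2 difference, AKR cross minus DBA cross, for all 27374, with differences beyond 2.5 drawn at 2.5; lower panel, 1 tick for each of the 22 tested probe sets of the 10 genes, by role. Of all tested probe sets, 5% lie below -0.65 and 5% above 0.44, and ticks of the transcription factor and the cytokine and receptor genes reach past -0.65 while those of the SLAM group do not.

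The rest of the pathway was read from 6 lists chosen by role, with 142 listed genes of which 111 were tested, the 10 genes left out. A gene is its brightest tested probe set here. In all, 13 genes were called with the AKR cross higher, 13 with the DBA cross higher and 85 not, by limma with Benjamini-Hochberg adjustment over 12849 genes. This is 23.4% of the tested list genes, beside 26.3% of all tested genes (13.8% with the AKR cross higher, 12.5% with the DBA cross higher). The median difference was -0.01, beside 0.03 for all genes. The count higher in the DBA cross was 7 without AKR replicate 2 and 6 without DBA replicate 2, and the count higher in the AKR cross was 8, 7, 8 and 7 without AKR replicate 1, AKR replicate 3, DBA replicate 2 and DBA replicate 3.

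**Figure D4:**
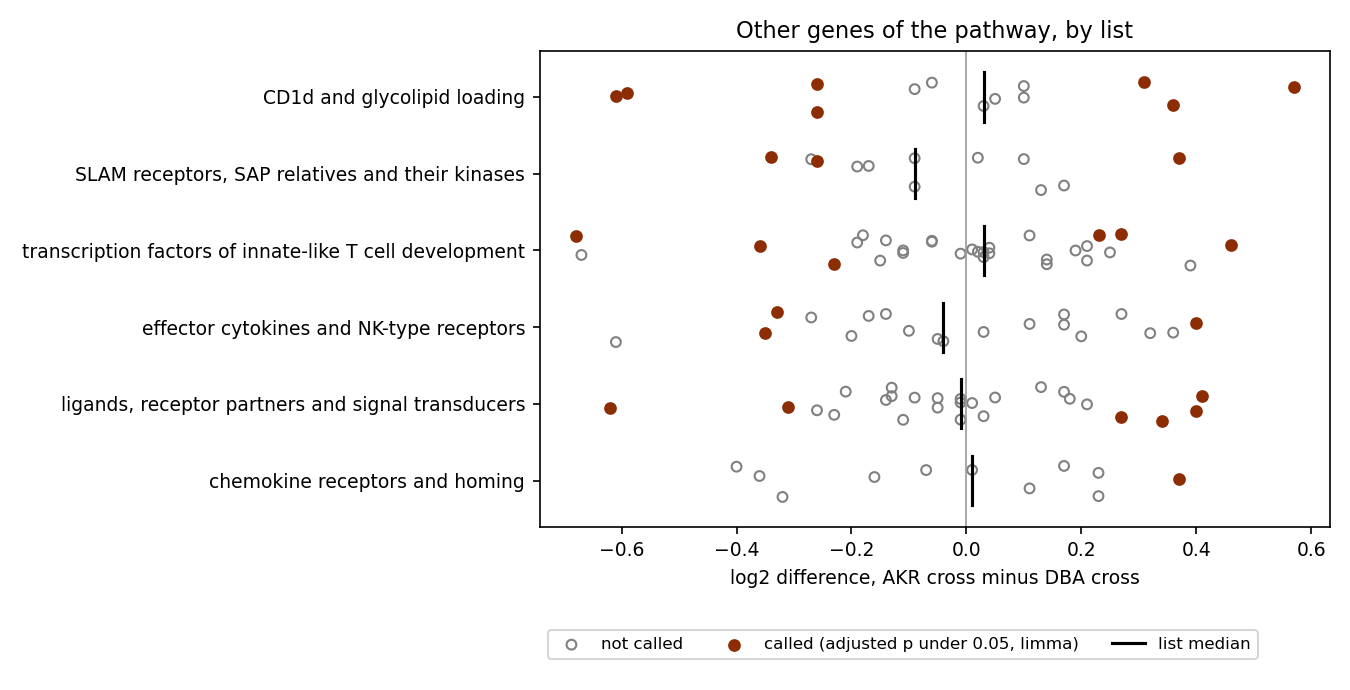
Log2 difference (AKR cross minus DBA cross, horizontal axis) of each tested gene of the 6 pathway lists, with filled points for genes called by limma (adjusted p under 0.05), open points for the others and a black line at each list's median. Called genes lie on both sides of 0, with 13 on each side, and the list medians run from -0.09 to 0.03.

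Genes for CD1d and the handling of its lipids went both ways, with 3 of 13 called towards the AKR cross and 4 towards the DBA cross (median 0.03). The share called was 53.8% in this short list, beside 26.3% of all tested genes. Cd1d1, which encodes the presenting molecule itself, read 9.59, 9.45 and 9.58 on the AKR arrays and 9.81, 9.83 and 9.75 on the DBA arrays (-0.26 ± 0.07, SE, adjusted p = 0.0208, limma), a call lost without AKR replicate 2 (0.0669) or DBA replicate 2 (0.0741). The other tested probe set of Cd1d1 was not called. For Npc1, a lysosomal lipid transporter gene, the DBA cross was 1.52-fold higher (-0.61 ± 0.09, SE, adjusted p = 0.00169, limma). Ugcg, for the enzyme that makes glucosylceramide, was 1.51-fold higher there (-0.59 ± 0.11, SE, adjusted p = 0.00589, limma). Gm2a, the GM2 activator gene, was 1.48-fold higher in the AKR cross (0.57 ± 0.08, SE, adjusted p = 0.00134, limma). Ctsl, which encodes cathepsin L, was 1.24-fold higher there (0.31 ± 0.04, SE, adjusted p = 0.00121, limma). Psap, the saposin precursor gene, differed by 0.03 ± 0.04 (SE) and was not called.

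Among other SLAM receptors, relatives of SAP and their kinases, 3 of 12 were called (median -0.09). Prkcq, which encodes protein kinase C theta, was higher in the DBA cross, at 10.61, 10.67 and 10.60 against 10.31, 10.16 and 10.39 (-0.34 ± 0.07, SE, adjusted p = 0.00690, limma). Fyn, the kinase gene whose product binds SAP, also was (-0.26 ± 0.08, SE, adjusted p = 0.0421, limma). Cd244a, which encodes the SLAM receptor 2B4, was higher in the AKR cross (0.37 ± 0.11, SE, adjusted p = 0.0380, limma). The Fyn call was lost without AKR replicates 1 or 2 or any DBA replicate (adjusted p from 0.0586 to 0.129), and also after quantile normalization (0.0521). The Cd244a call was lost without any AKR replicate or DBA replicates 2 or 3 (0.0605 to 0.118).

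Transcription factor genes of innate-like T cell development gave 3 of 30 called in each direction (median 0.03). Id2, an inhibitor of E proteins, was higher in the DBA cross, at 10.49, 10.48 and 10.27 against 9.84, 9.61 and 9.75 (-0.68 ± 0.08, SE, adjusted p = 0.000779, limma), but its 2 other tested probe sets were not called. Cul3, which encodes a ubiquitin ligase scaffold known to bind PLZF, was 1.28-fold higher there (-0.36 ± 0.06, SE, adjusted p = 0.00308, limma), with 2 of 4 other probe sets called the same way. Tcf12, the gene of the E protein HEB, was the other one (-0.23 ± 0.06, SE, adjusted p = 0.0208, limma), a call that did not hold without AKR replicate 2 (0.0654), DBA replicate 2 (0.0619) or DBA replicate 3 (0.0714). Gata3, a regulator of IL-4-producing T cells, was 1.38-fold higher in the AKR cross (0.46 ± 0.12, SE, adjusted p = 0.0184, limma), the direction opposite to Il4. The Gata3 call was lost without AKR replicate 1 (0.0582), DBA replicate 2 (0.0656) or DBA replicate 3 (0.0643). Elf4 (0.27) and Lef1 (0.23) were the others higher in the AKR cross, and neither call held without AKR replicate 1, AKR replicate 3 or DBA replicate 1 (adjusted p from 0.0595 to 0.142, limma), nor Elf4 without AKR replicate 2 (0.0852) or DBA replicate 3 (0.0904), nor Lef1 without DBA replicate 2 (0.143). With probe sets averaged, Lef1 gave 0.04 (adjusted p = 0.694, limma), Tcf12 gave -0.27 (0.0885) and Id2 gave -0.25 (0.0529). Myb, needed for the long life of double-positive thymocytes, differed by -0.01 ± 0.07 (SE) and was not called.

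Of 19 tested effector cytokine and NK-type receptor genes, 3 were called (median -0.04), and 11 of the 30 with a probe set were too dim to test. Klrd1, which encodes the NK receptor CD94, was 1.32-fold higher in the AKR cross (0.40 ± 0.09, SE, adjusted p = 0.00984, limma). Il13, the cytokine gene next to Il4, was higher in the DBA cross, at 6.22, 6.14 and 6.12 against 5.98, 5.83 and 5.67 (-0.33 ± 0.10, SE, adjusted p = 0.0407, limma). The Il13 call was lost without AKR replicates 2 or 3 or any DBA replicate (0.0797 to 0.124). Pdcd1, which encodes PD-1, was higher in the DBA cross (-0.35 ± 0.11, SE, adjusted p = 0.0464, limma), and this call was lost without AKR replicates 1 or 2 or any DBA replicate (0.0504 to 0.132). In all it was lost in 11 of 17 alternatives, with quantile normalization (0.0565) and no filter (0.0584) among them. Gzma, a granzyme gene, differed by 0.11 ± 0.08 (SE) and was not called.

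Among ligands, receptor partners and signal transducers, 4 of 26 were called towards the AKR cross and 2 towards the DBA cross (median -0.01). The signalling partner of Il18r1, Il18rap, was higher in the DBA cross, as Il18r1 was, at 7.02, 7.02 and 7.10 against 6.67, 6.67 and 6.88 (-0.31 ± 0.09, SE, adjusted p = 0.0333, limma). The Il18rap call was lost without AKR replicates 1 or 2 or any DBA replicate (0.0550 to 0.103), and its other tested probe set was not called. Il18bp, which encodes a soluble binder of IL-18, was 1.32-fold higher in the AKR cross (0.40 ± 0.09, SE, adjusted p = 0.0103, limma), while Il18 itself differed by -0.01 ± 0.10 (SE) and was not called. Icosl, the ligand of Icos, was higher in the AKR cross (0.34 ± 0.10, SE, adjusted p = 0.0284, limma), and its call was lost without AKR replicates 2 or 3 or DBA replicates 1 or 3 (0.0606 to 0.0974). With its probe sets averaged, Icosl gave 0.20 (adjusted p = 0.108, limma). Cxcl16, the ligand of Cxcr6, differed by 0.17 ± 0.07 (SE) and was not called. Il4ra, a chain of the IL-4 receptor, and Stat6, its transducer, each differed by -0.05 and were not called. For Il7r, of the IL-7 receptor, the DBA cross was 1.53-fold higher (-0.62 ± 0.16, SE, adjusted p = 0.0211, limma), with the call lost without AKR replicates 1 or 2 or DBA replicates 2 or 3 (0.0596 to 0.0769). Jak3, a kinase gene of these receptors, was 1.33-fold higher in the AKR cross (0.41 ± 0.10, SE, adjusted p = 0.0138, limma), a call lost without DBA replicate 2 (0.0543). Of 11 chemokine receptor and homing genes, Klf2 alone was called, a regulator of thymocyte exit that was higher in the AKR cross (0.37 ± 0.09, SE, adjusted p = 0.0201, limma), with the call lost without AKR replicate 3 (0.0709), DBA replicate 2 (0.0598) or DBA replicate 3 (0.0621).

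Markers of other cells that express some of the 10 genes went both ways, and their part in the results was not tested. Over all marker lists, 20 of 70 tested genes were called, 11 towards the AKR cross and 9 towards the DBA cross. That share, 28.6%, lay near the 26.3% of all tested genes, and the median difference was 0.02. The summed level of a list below is the log2 of the summed linear values of its genes. Regulatory T cell genes (8 of 9 listed had a probe set) summed to 11.71 to 11.78 on the AKR arrays and 11.82 to 12.01 on the DBA arrays, with Foxp3, their defining factor, under the 40th percentile on all 6 arrays. Of 7 tested regulatory T cell genes, Nrp1 alone was called, higher in the DBA cross (-0.40 ± 0.09, SE, adjusted p = 0.00915, limma), and its 3 other tested probe sets were not called (-0.03 with all averaged, adjusted p = 0.722). The median of the 7 was -0.01. Ikzf2, the brightest of them (10.58 against 10.77), was not called, and 1 of its 2 other tested probe sets was called the opposite way. Mast cell and basophil genes, of cells that also express Il4, summed to 9.01 to 9.14 against 9.30 to 9.42 (10 of 11 listed). Of 5 tested (median -0.15), Hdc, the histamine-synthesising enzyme gene, alone was called, higher in the DBA cross (-0.65 ± 0.08, SE, adjusted p = 0.000673, limma). Fcer1a, Ms4a2, Tpsab1 and Mcpt8 were under the 40th percentile on all arrays. Tuft cell genes, a source of IL-25, summed to 8.14 to 8.24 against 8.29 to 8.40 (5 of 6 listed), with Il25 itself under the 40th percentile throughout, Avil higher in the DBA cross (-0.85), Dclk1 higher in the AKR cross (0.44) and Pou2f3 at 0.13 and not called. The median of these 3 tested genes was 0.13, opposite in sign to the shift of the sum. The call for Dclk1 did not hold without AKR replicate 3 (adjusted p = 0.0570, limma), DBA replicate 2 (0.0518) or DBA replicate 3 (0.0595).

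Gamma-delta T cell genes overlapped in sum (8.86 to 9.11 against 8.92 to 9.0, with 4 of 8 listed genes measured), and 0 of 4 were called. Stromal and fat cell genes overlapped too (12.18 to 12.88 against 12.66 to 13.19, with 10 of 11 measured and Lep under the 40th percentile throughout), as did genes induced by glucocorticoids, of which Zbtb16 is a known one (12.64 to 13.52 against 12.49 to 13.55, with 7 of 7 measured). Of these 7, Per1 (-0.47, adjusted p = 0.0255, limma) and Sgk1 (-0.52, adjusted p = 0.0474, limma) were called, both higher in the DBA cross as Zbtb16 was, and 5 were not called. Neither call held without AKR replicates 1 or 2 or DBA replicates 2 or 3 (0.0652 to 0.0797 for Per1 and 0.107 to 0.156 for Sgk1), and that of Sgk1 also missed after quantile normalization (0.0617). Group 2 innate lymphoid cell genes (5 of 7) overlapped at 7.39 to 7.49 against 7.46 to 7.51, with Arg1 and Il5 under the 40th percentile throughout. Double-positive thymocyte genes (10 of 11) overlapped at 15.31 to 15.43 against 15.31 to 15.35. Of these 10, Cd3e alone was called, higher in the AKR cross (0.30 ± 0.05, SE, adjusted p = 0.00174, limma). Of 9 tested stromal and fat cell genes, Pdgfra alone was called, higher in the DBA cross (-0.49 ± 0.14, SE, adjusted p = 0.0305, limma). The Pdgfra call was lost without AKR replicates 1 or 3 or any DBA replicate (0.0535 to 0.0937). A further 3 lists had separate sums with the AKR cross higher. NK cell genes (7 of 9) summed to 11.40 to 11.53 on the AKR arrays against 11.28 to 11.31, macrophage genes (11 of 12) to 13.52 to 13.60 against 13.39 to 13.50, and B cell genes (8 of 9) to 10.59 to 10.70 against 10.30 to 10.42. Of the NK cell genes, Klra8, Klra7 and Klre1 were under the 40th percentile on all arrays. Of the 4 tested, Tyrobp alone was called (0.31, adjusted p = 0.0138, limma), and Eomes was at -0.67 and not called. Of 8 tested B cell genes, 5 were called towards the AKR cross and Blnk towards the DBA cross (-0.31, adjusted p = 0.017, limma). The Blnk call was lost without AKR replicate 2 (0.0584) or DBA replicate 2 (0.0647). The macrophage list differed in sign between its sum and its median difference (-0.04), with 3 of 11 genes called towards the AKR cross, among them the bright gene Lyz2 (12.53 against 12.26). The 1 called towards the DBA cross was Cd163 (-1.02 ± 0.17, SE, adjusted p = 0.00318, limma).

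The genes next to the 10 in the RefSeq order were not all shifted. Of 37 tested genes, the nearest 2 tested ones on each side of each gene with the 10 left out, 12 were called, 10 towards the DBA cross and 2 towards the AKR cross. This is 32.4%, beside 26.3% of all tested genes (12.5% towards the DBA cross and 13.8% towards the AKR cross). The count higher in the DBA cross fell to 4, 5, 6 and 4 without AKR replicate 2, DBA replicate 1, DBA replicate 2 and DBA replicate 3. Beside Icos, the costimulatory receptor genes Ctla4 (-0.61 ± 0.47, SE) and Cd28 (-0.02 ± 0.10, SE) were not called. Beside Zbtb16, Rbm7 was higher in the DBA cross (-0.28) and Gm5617 in the AKR cross (0.31), each far less than Zbtb16, and Htr3a and Usp28 were not called. Beside Maf, Dynlrb2 (-0.59) and Cdyl2 (-0.33) were higher in the DBA cross. The AKR mean of Dynlrb2 (4.81) was under the 40th percentile, so its difference has no exact size, and Dynlrb2 was not tested with any 1 DBA array left out. For Cdyl2 the probe sets averaged gave 0.01. Wwox and Nudt7 were not called. Beside Il4, Kif3a (-0.38), Septin8 (-0.31) and Il13 were higher in the DBA cross and Rad50 was not called. With probe sets averaged, Kif3a gave -0.17 (adjusted p = 0.128, limma) and Septin8 -0.15 (0.177). Beside Il18r1, Slc9a2 (-0.57) and Il18rap were higher in the DBA cross, and Il1rl2 and Il1r1 were not called. Chdh beside Il17rb (-0.38) and Xiap beside Sh2d1a (-0.48) were higher in the DBA cross, though Il17rb and Sh2d1a themselves were not called. No tested neighbour of Cxcr6 was called. Near Slamf1 and Slamf6, Ncstn was higher in the AKR cross on its brightest probe set (0.53), while its probe sets averaged gave -0.27, and Cd48, Slamf7, Cd84 and Vangl2 were not called. Some of these calls did not hold with 1 array left out. They were Gm5617 without any array but AKR replicate 1 (adjusted p from 0.0512 to 0.118, limma), Rbm7 without AKR replicates 2 or 3 or DBA replicate 3 (0.0506 to 0.0645), Cdyl2 without AKR replicates 2 or 3 or DBA replicates 1 or 3 (0.0502 to 0.0782), Kif3a without AKR replicate 2 (0.0599) and Septin8 without any array but AKR replicate 3 (0.0518 to 0.0773). Those of Il13 and Il18rap are given above.

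The tested genes whose pattern over the 6 arrays was nearest to that of Zbtb16 1439163_at were Syt13, H2-Ea, Rgs13, Ercc6 and Rabif. Likeness was the root mean square distance between values centred on their mean over the 6 arrays, which was 0.17 for Syt13 and H2-Ea, 0.19 for Rgs13 and Ercc6 and 0.23 for Rabif. Syt13, a synaptotagmin gene, read 5.36, 5.45 and 5.36 on the AKR arrays and 7.39, 7.77 and 7.62 on the DBA arrays. H2-Ea, a class II chain gene, read 9.74, 9.87 and 9.98 against 11.70, 11.80 and 11.83. All 3 AKR arrays of Rgs13 and Ercc6 were under the 40th percentile. The measure picks genes with a difference near -2.09, from -2.20 (Syt13) to -1.76 (Rabif), and none of the other 9 genes could be among them, as they were left out.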

How the data were processed

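Thymus RNA of 6 mouse samples was labelled with biotin by the Affymetrix procedure and read on 1-channel arrays. The deposited table holds the authors' log2 value per probe set. The submitters' processing notes name MAS5 and RMA but not which of them made these values. Once each array was sorted, the mean SD between arrays was 0.0291, so the arrays share nearly 1 distribution. They were used as deposited. The 64 control probe sets were left out. Groups and replicate numbers came from the sample titles. No 2 arrays were identical. Detection calls and batches were not used here.

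Two-sided tests used limma 3.58.1 (lmFit, then eBayes with a trend) in R 4.3.3. Adjustment was by Benjamini-Hochberg with a threshold of 0.05, over 27374 probe sets or, with each gene as its brightest tested probe set of 1 symbol, over 12849 genes. Plots used matplotlib 3.10.9. Symbols came from the platform annotation, with older list names matched through RefSeq (GRCm38.p6), which also gave gene order and promoters.

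The members, lists and tests were chosen with earlier results of these data known. The rule for named genes took every probe set of the 10 genes, up to 4 called genes and 2 bright uncalled ones per list, called neighbours and the 5 genes nearest in pattern to Zbtb16; only some list genes are given. Cd1d1, Elf4, Lef1, Il18, Cxcl16, Il4ra, Stat6, Ctla4, Cd28, the uncalled neighbours and those in the last section were named after their values were seen. Alternatives were other filters, normalizations, a floor, variance models, a replicate block, each array left out, and probe sets averaged per gene.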

Additional observations from a re-analysis of the deposited data

How the results depend on the processing

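The differences of the 22 tested probe sets of the 10 genes were recomputed under 12 to 16 alternatives each, and 336 of 337 values stayed within 1 SD of the replicates. The exception was Slamf1 1425570_at, given above, whose move was near that SD. The sign turned for 2 probe sets with differences near 0, neither of them called: Sh2d1a 1449393_at (0.02 after quantile normalization, 0.04 without AKR replicate 2) and Slamf6 1425086_a_at (-0.03 without AKR replicate 1). Of the 10 genes, 4 to 8 were called under the alternatives, against 6, and 0 were called higher in the AKR cross. Over all tested genes, 641 to 2148 were called higher in the DBA cross under the alternatives, against 1605. Those called higher in the AKR cross ran from 725 to 2374, against 1777. Nothing is read from the counts of the 10 genes, since this difference chose them. Quantile normalization moved the share of calls towards the AKR cross from 44.8% to 53.4% of called probe sets, which turns their balance, and from 52.5% to 62.1% of called genes. Without sharing of variance between probe sets, counts fell: probe sets called higher in the AKR cross from 3336 to 1594 and in the DBA cross from 4111 to 1949, genes from 1777 to 725 and from 1605 to 641, pathway genes from 13 to 5 and from 13 to 3, marker genes from 11 to 5 and from 9 to 3, and neighbouring genes from 2 to 1 and from 10 to 5. With 1 array left out, probe sets called higher in the AKR cross ran from 2127 to 2951 and in the DBA cross from 2765 to 3701, genes from 1109 to 1678 and from 1092 to 1351, pathway genes from 7 to 11 and from 6 to 15, marker genes from 7 to 10 and from 4 to 8, and neighbouring genes from 1 to 2 and from 4 to 9 with fewer samples in each fit. With the replicate number as a block, pathway genes called higher in the DBA cross rose to 21 and marker genes to 15, and no other of these counts moved by over 1.5 times. Ctla4, Id3 and Ccr7 passed the threshold with the block (adjusted p = 0.000523, 0.0332 and 0.00373, limma), but the numbers were not taken to pair the arrays. Deviations from the group means of same-numbered arrays correlated at 0.389, 0.0694 and 0.371, and 5 of 6 arrays correlated best with their own number, which is a hint from the data and not the design. Averaging over probe sets changed the sign of Cdyl2, Ncstn and Satb1, and the cause was not tested. Cdyl2 went from -0.33 to 0.01 (adjusted p = 0.922, limma), which is nearly no difference. Ncstn went from 0.53 to -0.27 (adjusted p = 0.0484, limma). Satb1, not called on its brightest probe set (0.04), went to -0.70 (adjusted p = 0.000121, limma). Of 50 named called genes, 16 kept their call and direction under every alternative in which they were tested. The number of arrays limits the precision, and values under the 40th percentile have no exact fold.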

Other observations

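Several genes of T cell activation and maturation varied more among the arrays of a cross than between the crosses. Egr2, a transcription factor gene induced by T cell receptor signals and needed for NKT cells, read 8.11, 6.50 and 6.78 on the AKR arrays and 8.0, 6.98 and 6.82 on the DBA arrays. Id3, an inhibitor of E proteins that the same signals induce, read 10.35, 9.21 and 8.96 against 9.94, 9.18 and 8.67. The arrays numbered 1 were the highest of their cross for both. Ctla4 went the other way, at 6.63, 7.74 and 8.27 against 7.16, 8.27 and 9.02. Ccr7, a chemokine receptor gene of mature thymocytes, also had the arrays numbered 1 as the lowest of their cross (8.83 and 9.20), with means of 9.28 ± 0.47 and 9.69 ± 0.43 (SD, n = 3 each). None of these 4 genes was called between the crosses (adjusted p = 0.824, 0.652, 0.370 and 0.250, limma). These genes were picked after their values were seen.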
